A study of Rattus norvegicus with 52 samples.

Results

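Entire liver sections of F344 rats, an inbred laboratory strain, were compared between animals given 0.29% clofibric acid (CA) and untreated animals. These are 16 of the 52 arrays of the series, chosen by their labels alone: 8 from untreated rats and 8 from rats given 0.29% CA. The series also holds 6 arrays of entire sections at 0.54% CA, and stained sections with 8 control arrays, 7 at 0.29% CA and 5 at 0.54% CA, which are used below only to set the same genes beside. Each array measured total RNA from 1 sample with 8740 probe sets besides controls. The labels used here do not state the route and length of treatment, the sex and age of the rats or whether the replicates of a group are separate animals. The p-values therefore describe the scatter of these samples, which may be technical in part.

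CA is a fibrate, a lipid-lowering drug that activates the nuclear receptor PPARα. In rodent hepatocytes PPARα pairs with the retinoid X receptor on DNA and drives genes for fatty acid uptake, activation and oxidation in peroxisomes, mitochondria and microsomes. The rat liver is known for a strong response to this class, with more peroxisomes and lower plasma lipids.

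Gene names below rest on the GenBank accession inside each probe set ID, read from background knowledge and not from the deposited table, which names no gene. No table used here pairs these accessions with genes, and 0 of them matched the gene table at hand, so the names were not checked against a source. Names that were in doubt were left out, and close copies of a gene can share a probe set. In this way 487 probe sets were given 351 gene names, and the ID stands beside each gene described. Among 105 named genes with more than 1 tested probe set, no gene had probe sets called in opposite directions. The median correlation between probe sets given the same name was 0.36 across all arrays, over 99 pairs above the floor on most arrays.

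Intensities are the deposited linear values, which can be negative because they are differences between matched and mismatched probes. Fold changes are on the log2 scale after values under a floor of 4 were raised to it and the arrays were quantile normalized, so folds of dim genes are understated. Where most arrays of a group lie at the floor, their scatter is set by the floor. The SE and p-value of such a gene then do not measure the spread of that group and can be too small. A probe set is called when its Benjamini-Hochberg adjusted p from limma lies under 0.05. Mean intensities ran from 163 to 202 per array. None of 5 measures of array quality differed between the groups (exact permutation tests, two-sided, n = 8 each, lowest adjusted p = 0.601). The GAPDH 3'/5' signal ratio, a sign of RNA degradation when high, was 6.25 on control replicate 7 and 5.07 on treated replicate 7, and lay between 1.18 and 2.65 on the other arrays. Replicates 1 to 3 of each group also lay close together, with a log2 SD between arrays, over the 3000 brightest probe sets, of 0.25 to 0.31 at 0.29% CA against 0.34 to 0.67 for all other treated pairs. In controls these values were 0.29 to 0.32 and 0.31 to 0.60. If those replicates share a source, the p-values below are too small, which was not tested.

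Of 7804 probe sets tested, 433 were called higher at 0.29% CA (5.55%) and 444 lower (5.69%). Changes of at least 2-fold made up 192 of the rises (2.46% of probe sets tested) and 164 of the falls (2.10%). The deposited intensities of the groups did not overlap for 159 probe sets that were higher (2.04%) and 138 that were lower (1.77%). Without the arrays of the 3 entire groups with a GAPDH ratio above 4 the calls numbered 874, and 537 with replicates 1 to 3 of each group averaged into 1 sample. Among the 348 named genes, each taken at its brightest probe set, 62 were higher and 71 lower, a called share of 38.2%. The names were picked for known liver genes, and with earlier results of these data known. Both may raise this share above the 11.2% of all probe sets. It stands beside the called shares of the gene lists below only to show how often named genes were called. As the lists hold these same genes, it is no independent background. The median log2 fold change was -0.01 both over all probe sets tested and over the named genes.

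**Figure D1:**
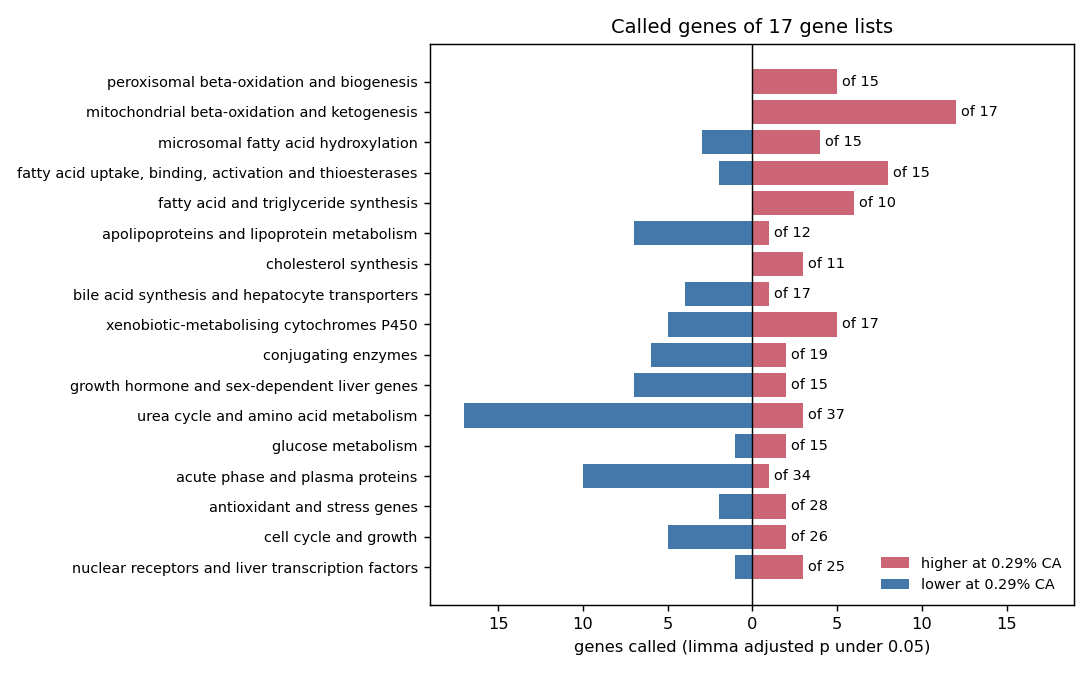
Number of genes called lower (bars to the left) and higher (bars to the right) at 0.29% CA in each of 17 gene lists, with the number of genes tested beside each bar. The 12 rises of the mitochondrial list and the 17 falls of the amino acid list are the longest bars.

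In the list of peroxisomal beta-oxidation and biogenesis, 5 of 15 genes were higher and 0 lower (33.3% called, against 38.2% of named genes). Its median log2 fold change was 0.42. Acaa1a (j02749_at), the thiolase that ends each round of peroxisomal oxidation, had intensities of 117 to 311 in controls, with a median of 166. At 0.29% CA it ran from 3348 to 5713 with a median of 4999. The groups lay far apart, a 35.1-fold rise (log2 fold change 5.14, SE 0.16, adjusted p = 1.12e-15). A second probe set of the gene (j02749_g_at) rose by a log2 fold change of 2.78, from a median of 558 to 3442, so the size of the change depends on the probe set. The former set is the brighter over all 16 arrays only through the treated ones, since the latter is brighter in controls. A near-identical gene, Acaa1b, can share these probes.

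Ehhadh (k03249_at), the bifunctional enzyme of the middle steps of the same pathway, went from 372 to 839 in controls (median 520.5) to 2976 to 4451 with CA (median 3638). That is an 8.69-fold rise without overlap (log2 fold change 3.12, SE 0.13, adjusted p = 2.51e-13). Crot (u26033_at), which moves shortened acyl chains onto carnitine, rose from a median of 166 to 715 (log2 fold change 2.20, adjusted p = 8.09e-10). Ech1 (u08976_at), an isomerase for unsaturated chains, rose 2.21-fold from a median of 1164 to 2249 (adjusted p = 4.37e-08). Cat (m11670_at), the catalase that removes hydrogen peroxide in peroxisomes, had medians of 1524 and 1652 and was not called (log2 fold change 0.16, adjusted p = 0.576).

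In mitochondria, 12 of 17 genes of beta-oxidation and ketogenesis were higher and 0 lower (70.6% called), with a median log2 fold change of 0.68. Cpt1b (d43623_g_at), the muscle form of the carnitine palmitoyltransferase that lets long chains enter mitochondria, lay between -2 and 30 in controls and between 153 and 203 with CA. Of the controls, 4 were at or under the floor, and the fitted rise was 24.4-fold (log2 fold change 4.61, SE 0.29, adjusted p = 1.61e-10). Its second probe set (d43623_at) rose from a median of 35.5 to 143 (log2 fold change 1.90), so the size of the change depends on the probe set. The former set is the brighter over both groups only through the treated arrays, since the latter is brighter in controls. Cpt1a, the liver form, was not called, with medians of 656 and 768 (log2 fold change 0.13).

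Eci1 (d00729_g_at), an enoyl-CoA isomerase, rose 3.98-fold from a median of 1159 to 4072 without overlap (adjusted p = 1.56e-10), while its other probe set (d00729_at) was at or under the floor on 7 of 8 control and 6 of 8 treated arrays and gives no level to compare. Acat1 (d13921_s_at), the acetoacetyl-CoA thiolase, rose 3.69-fold from a median of 445 to 1650 (adjusted p = 2.38e-11). Decr1 (d00569_g_at), the dienoyl-CoA reductase, rose 2.65-fold from 809.5 to 1956 at the median (adjusted p = 0.00225). The chain-length enzymes Hadhb, Acadl, Acaa2 and Hadha rose by smaller steps, with log2 fold changes of 1.15, 1.05, 0.91 and 0.70.

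The list of microsomal fatty acid hydroxylation also held other enzymes, such as Aldh1a1 and Ephx2, that do not hydroxylate fatty acids. It was mixed, with 4 of 15 genes higher and 3 lower (46.7% called) and a median log2 fold change of 0.04. Cyp4a1 (m57718mrna_s_at), the cytochrome P450 that hydroxylates the far end of fatty acids, had 555 to 1620 in controls (median 852) and 3009 to 3799 with CA (median 3206). It rose 4.57-fold (log2 fold change 2.19, SE 0.16, adjusted p = 1.66e-09), and its other probe sets rose by 2.55 and 2.96 on the log2 scale. Cyp4a genes are close copies and can share signal. The probe set of Cyp4a3 (m33936_s_at) was already at a median of 3684 in controls and had 3704 with CA (log2 fold change 0.11, adjusted p = 0.728).

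Aldh1a1 (af001898_at), an aldehyde dehydrogenase that oxidizes retinal and other aldehydes, rose 8.56-fold, from 72 to 317 in controls to 1157 to 1426 with CA (adjusted p = 3.26e-09). Ephx2, the soluble epoxide hydrolase, rose from a median of 114 to 234 with overlapping groups (adjusted p = 0.0124), and Cyp2j3, an epoxygenase of arachidonic acid, rose 1.96-fold. The probe set m37828_at, listed here as Cyp4f1, fell 1.90-fold from a median of 58 to 33. Which member of the Cyp4 family it measures is uncertain. Cyb5a (af007107_s_at), which encodes cytochrome b5, fell 1.65-fold from 2538 to 1640. The third fall, Aldh1a7 (m23995_at, 1.42-fold, adjusted p = 0.0444), had a second probe set (m23995_g_at) at or under the floor on 8 of 8 control and 6 of 8 treated arrays, which gives no level to compare, and lost its call without the arrays with a GAPDH ratio above 4.

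Fatty acid uptake, binding, activation and thioester cleavage counted 8 of 15 genes higher and 2 lower (66.7% called). The median log2 fold change was 0.59. Several of the rises started from values near the floor. Acot1 (ab010428_s_at), a cytosolic thioesterase that splits acyl-CoA, lay between -4 and 13 in controls, with 7 of 8 arrays at or under the floor. With CA it ran from 120 to 258 (median 144), a 29.1-fold rise on the floored scale (log2 fold change 4.86, SE 0.18, adjusted p = 1.74e-14). Acot2 (y09333_g_at), its mitochondrial relative, lay between -82 and 6 in controls, again with 7 of 8 at or under the floor. It had 124 to 212 with CA (log2 fold change 5.06, SE 0.65, adjusted p = 7.58e-06). A second probe set of Acot2 (y09333_at) rose less, by a log2 fold change of 3.02, from a median of 6.50 to 66. The former set is the brighter over both groups only through the treated arrays, since the latter is brighter in controls. The thioesterases are near-identical copies, and the split of signal between them is uncertain.

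Fabp3 (j02773_at), the heart form of the fatty acid binding proteins, rose 13.4-fold from 4 to 17 in controls to 89 to 133 with CA (adjusted p = 8.13e-11). Cd36 (af072411_g_at), the fatty acid translocase of the cell surface, rose 5.26-fold from a median of 48.5 to 270.5 without overlap (adjusted p = 2.19e-09). All 4 of its probe sets were called higher, with log2 fold changes of 2.02 to 3.19. Lpl, a lipase mostly made outside the adult liver, rose at both probe sets, with log2 fold changes of 2.34 and 2.64. The fatty acid transporter Slc27a2 and the activating enzyme Acsl3 also rose (log2 fold changes 0.42 and 1.78). Acsl5 (ab012933_g_at), another activating enzyme, fell 1.57-fold from a median of 496 to 353, and Lipc, hepatic lipase, fell 1.26-fold. Both falls lost their call when arrays were only centred on their median, and that of Lipc also with replicates 1 to 3 averaged.

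Fabp1 (v01235_at), the abundant liver form, rose less in proportion, with 3084 to 4673 in controls (median 3680) and 3458 to 6386 with CA (median 5211). The groups overlapped (log2 fold change 0.66, SE 0.08, adjusted p = 1.64e-06). PPARα with its partner binds a direct repeat of a short core with 1 base between the copies, and such letters were searched in the 250 bases before the start of each gene in RefSeq promoters (build GRCr8). A repeat of the core AGGNCA with 1 base between the copies, on either strand, was in 123 of 33469 promoters (0.368%), in 1 of 48 promoters of named genes called higher, in 0 of 61 of genes called lower and in 1 of 180 of genes not called. The same repeat of the stricter core AGGTCA, whose matches are a subset, was in 17 of all promoters (0.0508%) and in none of these. Both matches among the named genes are shown because one gene rose and the other was not called, and capitals mark the match.
Fabp1, chr4:104749243-104749295, plus strand: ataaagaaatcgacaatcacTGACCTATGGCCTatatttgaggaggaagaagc
Gys2, chr4:177137284-177137336, minus strand: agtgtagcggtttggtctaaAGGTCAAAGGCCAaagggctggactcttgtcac
The Fabp1 match is on the strand opposite to the gene, 77 to 65 bases before its start, and the Gys2 match is on the gene's own strand, 80 to 68 bases before its start. Gys2 (j05446_at), liver glycogen synthase, had medians of 139.5 and 154 and was not called (log2 fold change -0.11, adjusted p = 0.879). A match is only a description of the letters in this window.

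**Figure D2:**
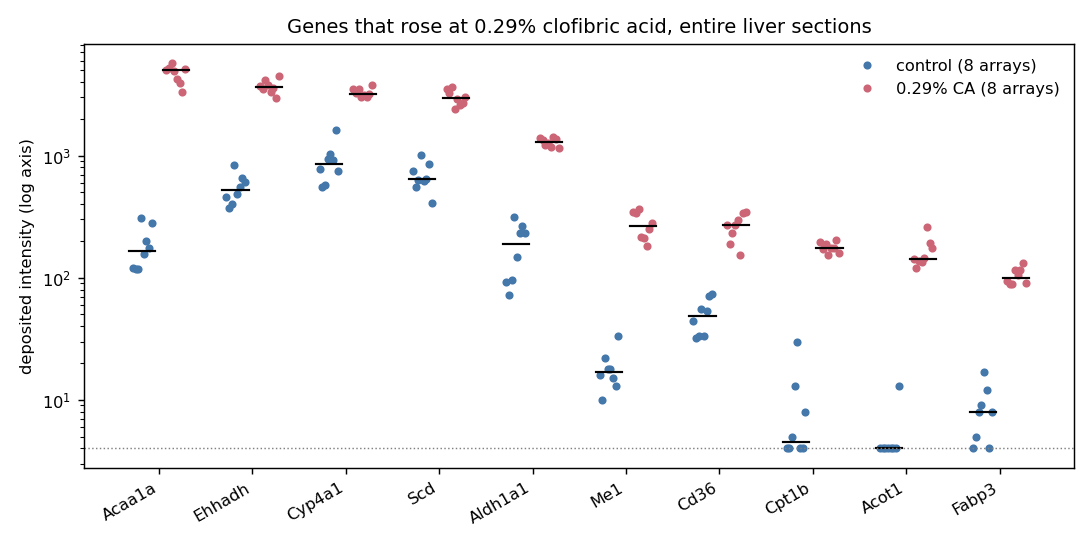
Deposited intensity (log axis) of 10 genes that rose, on the 8 control and the 8 treated arrays, with each point 1 array and the black line the median. Values under the floor of 4 (dotted line) are drawn at it, and no treated array overlaps the controls for any of these genes.

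In fatty acid and triglyceride synthesis 6 of 10 genes were higher, 0 lower and 4 not called, a called share of 60.0%. The median log2 fold change was 0.86. Me1 (m26594_at), the malic enzyme that supplies NADPH, rose 15.4-fold from 10 to 33 in controls (median 17) to 181 to 364 with CA (median 266; adjusted p = 2.49e-12). Scd (j02585_at), the desaturase that makes monounsaturated fatty acids, rose 5.31-fold from 406 to 1021 in controls to 2419 to 3669 with CA (adjusted p = 3.82e-11). Thrsp and Fasn, the fatty acid synthase, rose by log2 fold changes of 1.02 and 0.68 (the second probe set of Fasn was not called), while Acly, the citrate lyase, was not called (0.12).

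For 2 genes of synthesis the arrays were scattered. Srebf1 (l16995_at), a transcription factor of lipid synthesis, had 10 to 153 in controls and 69 to 671 with CA, with a log2 SD of 1.23 and 1.27 (log2 fold change 2.03, SE 0.64, adjusted p = 0.0432). Scd2 (af036761_g_at) had -83 to 2 in controls and -35 to 471 with CA (log2 fold change 4.10, SE 0.93, adjusted p = 0.00442), and its other probe set was at or under the floor on 8 of 8 control and 5 of 8 treated arrays. Both lost their call with replicates 1 to 3 averaged (adjusted p = 0.159 and 0.0723).

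Apolipoproteins and lipoprotein metabolism moved mostly the other way, with 7 of 12 genes lower and 1 higher (66.7% called). Their median log2 fold change was -0.28. Apoa4 (m00002_at), an apolipoprotein of chylomicrons and HDL, showed the largest fall of all. Its intensities were 899 to 1636 in controls (median 1291) and 11 to 70 with CA (median 31). The groups lay far apart, a 47.2-fold fall (log2 fold change -5.56, SE 0.37, adjusted p = 3.27e-10). Apoc3 (j02596cds_at), an inhibitor of triglyceride clearance, fell 1.92-fold from 5950 to 9673 in controls to 3057 to 5540 (adjusted p = 1.95e-07).

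Lcat (x54096_at), which esterifies cholesterol in plasma, fell 1.84-fold from a median of 1842 to 1094 (adjusted p = 1.59e-05). Apoa1 (m00001_i_at), the main protein of HDL, fell from 3065 to 2155 at the median with overlap (log2 fold change -0.57, SE 0.12, adjusted p = 0.00282). Apob and Apoe, structural proteins of the larger particles, were not called (log2 fold changes -0.20 and 0.04). The single rise was Apobec1 (l07114_at), the editing enzyme of Apob RNA, from a median of 8.50 to 27 (adjusted p = 0.0486), which lost its call under several settings. With arrays only centred on their median, 4 genes of the list were lower.

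Cholesterol synthesis had 3 of 11 genes higher and 0 lower (27.3% called, against 38.2% of named genes). Its median log2 fold change was 0.39. Fdps (m89945mrna_at), which makes farnesyl diphosphate, rose 2.76-fold from 150 to 198 in controls to 206 to 647 with CA without overlap (adjusted p = 2.58e-06). Its second probe set rose by a log2 fold change of 1.64. Fdft1, squalene synthase, and Lss, lanosterol synthase, rose 2.06-fold and 1.31-fold (adjusted p = 0.036 and 0.0407) and lost their calls without single arrays and with replicates 1 to 3 averaged.

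Among 17 genes of bile acid synthesis and transport, 4 were lower and 1 higher (29.4% called, against 38.2% of named genes). Their median log2 fold change was -0.21. Abcc2 (d86086_s_at), which exports conjugates into bile, rose 1.52-fold from a median of 282 to 420.5 without overlap (adjusted p = 7.08e-04). Slco1a4, an uptake transporter, Akr1c14, a steroid dehydrogenase, Nr1h4, the bile acid receptor, and Baat, which conjugates bile acids, had log2 fold changes of -0.59, -0.57, -0.56 and -0.31. All 4 falls lost their call with arrays only centred on their median. Cyp7a1 (j05460_s_at), the rate-limiting enzyme, had medians of 218 and 96.5 and was not called (log2 fold change -0.66, SE 0.34, adjusted p = 0.277).

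Drug-metabolising cytochromes P450 split evenly, with 5 of 17 genes higher and 5 lower (58.8% called) and a median log2 fold change of 0.09. Cyp17a1 (m21208mrna_s_at), an enzyme of steroid hormone synthesis, rose 10.5-fold from 3 to 35 in controls to 117 to 196 with CA (adjusted p = 4.91e-08). Cyp2c22 (m58041_s_at) rose 2.40-fold from a median of 1666 to 3394 (adjusted p = 3.51e-09). Probe sets of Cyp2b1 and Cyp2b2, near-identical phenobarbital-inducible genes that cannot be told apart with certainty, rose 2.06-fold and 1.62-fold. Of these, Cyp2b2 (m13234cds_f_at) lost its call with replicates 1 to 3 averaged (adjusted p = 0.162).

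Cyp3a9 (u46118_at) fell 17.9-fold, from 198 to 604 in controls (median 322) to 13 to 28 with CA (median 17; log2 fold change -4.16, SE 0.26, adjusted p = 1.05e-10). Cyp1a2 (m26127_s_at), which oxidizes caffeine, fell 2.13-fold from 1135 to 1460 in controls to 594 to 736 (adjusted p = 5.46e-08). Cyp3a23-3a1 and Cyp3a18, of the family of Cyp3a9, fell 1.88-fold and 1.57-fold, the latter without a call when arrays were only centred on their median, and the male-specific Cyp2c11 fell by 0.61 on the log2 scale. Cyp2e1, an abundant ethanol-oxidizing enzyme, was not called at its brightest probe set but fell at both others (log2 fold changes -0.16, -0.41 and -0.42).

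Conjugating enzymes counted 6 of 19 lower and 2 higher (42.1% called, against 38.2% of named genes), with a median log2 fold change of -0.31. Sult2a1 (m31363mrna_f_at), a hydroxysteroid sulfotransferase, fell 2.69-fold from a median of 1924 to 813 (adjusted p = 3.86e-07). Sult1e1 (s76489_s_at), the estrogen sulfotransferase, fell 2.17-fold from 2832 to 1336 (adjusted p = 2.28e-07). Gsta2 (k00136mrna_at), a glutathione S-transferase of the alpha class, fell 2.15-fold from 740.5 to 364 (adjusted p = 2.86e-05). None of these 3 had overlapping groups. Ephx1 (m26125_at), the microsomal epoxide hydrolase, rose 1.73-fold from 762 to 1294 without overlap (adjusted p = 2.79e-07). The other rise, Gsta5 (s82820mrna_s_at), was dim, from a median of 7.50 to 28, and lost its call with a floor of 20, and a second probe set near the floor (s72506_s_at) was not called. Gstm2 fell 1.40-fold at an adjusted p of 0.0499 and lost its call under many settings.

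Genes that depend on growth hormone or sex were lower in 7 of 15 and higher in 2 (60.0% called). Their median log2 fold change was -0.32. The alpha-2u globulin probe set (j00738_s_at), for male-specific urinary proteins encoded by many near-identical genes, fell 3.23-fold. It had 3004 to 4597 in controls (median 3740) and 697 to 1657 with CA (median 1358; adjusted p = 1.44e-07). Rgn (d31662exon#4_s_at), the calcium-binding regucalcin, fell 2.44-fold from a median of 802 to 384 (adjusted p = 2.15e-07). Srd5a1, steroid 5-alpha reductase, and Igfbp3, the main carrier of IGF-1, fell 2.01-fold and 1.80-fold with overlapping groups. Igf1 itself fell at 1 of 5 probe sets (m15481_g_at, log2 fold change -0.37, adjusted p = 0.0440). Igfbp1 (m58634_at), a carrier that varies with insulin, rose 2.99-fold from a median of 123 to 419, and Cyp2c13 rose 1.43-fold. With arrays only centred on their median, 4 of the list were lower, and Cyp2c13, Srd5a1 and Igfbp3 lost their calls. With replicates 1 to 3 averaged Igfbp1 and Igfbp3 lost their calls.

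The list with most falls was the urea cycle and amino acid metabolism, with 17 of 37 genes lower and 3 higher (54.1% called). Its median log2 fold change was -0.34. Oat (m93297cds_at), ornithine aminotransferase, fell 13.9-fold from 432 to 1064 in controls (median 922) to 44 to 86 with CA (median 70.5). The groups did not overlap (log2 fold change -3.80, SE 0.20, adjusted p = 8.41e-12). Sds (j03863_at), the serine dehydratase that turns serine to pyruvate, went from 489 to 1833 in controls to 37 to 794 with CA, with overlap and a wide spread (log2 fold change -3.18, SE 0.63, adjusted p = 0.00138). Its second probe set (x13119cds_s_at) fell by 3.93 on the log2 scale.

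Got1 (j04171_at), the cytosolic aspartate aminotransferase, fell 2.97-fold from a median of 676 to 215 (adjusted p = 5.20e-05). Asl (d13978_s_at), the argininosuccinate lyase of the urea cycle, fell 2.68-fold from 1237 to 1647 in controls to 390 to 836 (adjusted p = 7.89e-08). Its partners Ass1, Arg1 and Cps1 fell less (log2 fold changes -0.64, -0.61 and -0.37), and Otc was not called (0.00). Cbs, Hal and Gls2, enzymes of homocysteine, histidine and glutamine use, fell by 1.37, 1.18 and 1.13 on the log2 scale without overlap. Asns (u07201_at), asparagine synthetase, rose 3.12-fold from a median of 36.5 to 112, Csad (m64755_at), of taurine synthesis, rose 2.22-fold from 205 to 474, and Bckdha, of branched-chain amino acid breakdown, rose 1.92-fold at j02827_g_at but was not called at j02827_at (adjusted p = 0.0639). With arrays only centred on their median the list had 11 lower and 4 higher.

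**Figure D3:**
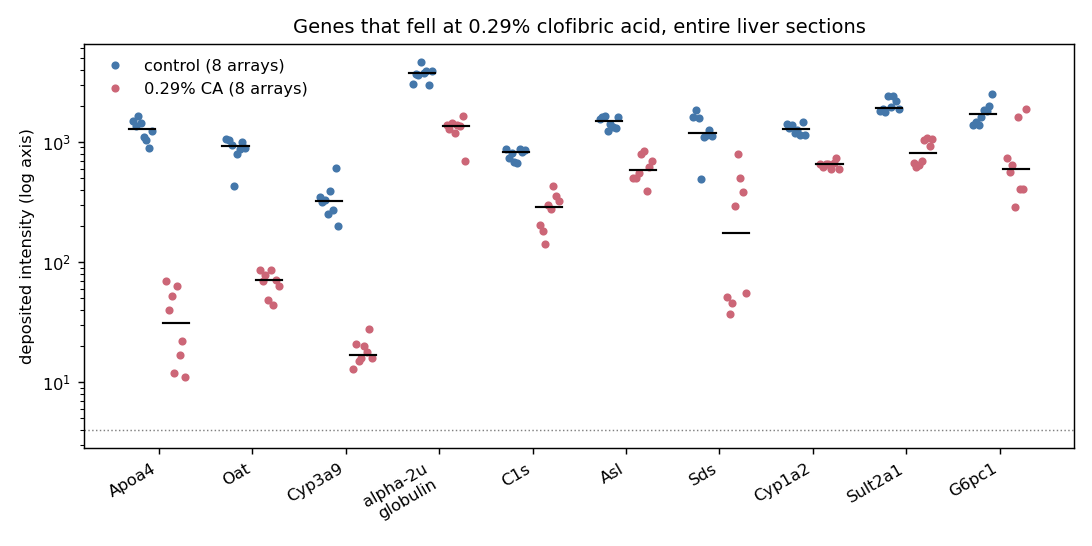
Deposited intensity (log axis) of 10 genes that fell, on the 8 control and the 8 treated arrays, with each point 1 array and the black line the median. Apoa4, Oat and Cyp3a9 show the widest gaps, while treated arrays of Sds and G6pc1 reach into the range of the controls.

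Glucose metabolism changed in few members, with 2 of 15 genes higher and 1 lower (median log2 fold change -0.01). Tkt, the transketolase of the pentose phosphate pathway, rose 1.40-fold. G6pc1 (l37333_s_at), which releases free glucose, fell 2.74-fold from 1379 to 2496 in controls to 287 to 1867 with CA, with overlap (adjusted p = 0.00618). Pck1, the entry enzyme of gluconeogenesis, had medians of 2867 and 1728 and was not called (log2 fold change -0.88).

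Several of these genes are used along the axis of the liver lobule, in which hepatocytes near the portal vein and near the central vein carry different enzymes. In the periportal list 8 of 12 genes were lower and 0 higher (median log2 fold change -0.76), and in the pericentral list 3 of 6 were lower and 0 higher (median -0.87). The summed intensity of the periportal genes was 22743 to 30809 in controls and 15690 to 22997 with CA, and that of the pericentral genes 10475 to 12055 and 6485 to 8644. Genes of both zones were thus among the falls. Glul, the glutamine synthetase of the last cells around the central vein, was not called (log2 fold change 0.03). These lists overlap with those above and give no separate count. In bulk sections fewer cells of a type and less RNA per cell cannot be told apart.

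**Figure D4:**
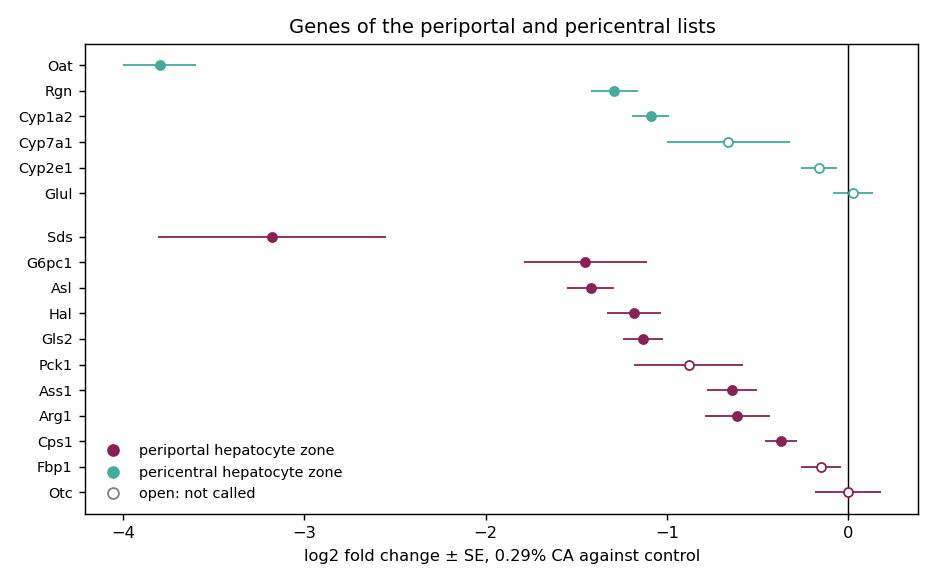
Log2 fold change at 0.29% CA against control with its standard error (bars) for the reported genes of the periportal and pericentral lists, with filled points called and open points not called. Oat (-3.80) and Sds (-3.18) lie farthest from 0, and Glul and Otc lie near it.

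Acute phase and plasma proteins were lower in 10 of 34 genes and higher in 1, with a median log2 fold change of -0.24. The called share was 32.4%, against 38.2% of all named genes. C1s (d88250_at), a protease of the first complement complex, fell 3.31-fold from 670 to 881 in controls to 141 to 426 with CA (adjusted p = 1.53e-06). C4bpa, a complement regulator, Vtn, vitronectin, and Itih3, a protease inhibitor chain, fell 1.57-fold, 1.55-fold and 1.53-fold. Of these, C4bpa lost its call with arrays only centred on their median. The rise was Serpina7 (m63991_at), the thyroxine-binding globulin, which lay between 0 and 7 in controls and between 23 and 71 with CA (log2 fold change 2.91, SE 0.26, adjusted p = 4.92e-08). Fibrinogen chains and transferrin were not called. With arrays only centred on their median, 5 were lower.

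Antioxidant and stress genes had few calls, with 2 of 28 higher and 2 lower, a called share of 14.3% against 38.2% of all named genes and 11.2% of all probe sets. Txnrd2, the mitochondrial thioredoxin reductase, and Hspd1, a mitochondrial chaperone, rose 2.04-fold and 1.53-fold, and a second Txnrd2 probe set near the floor was not called. Gpx1, a selenium glutathione peroxidase, and Hspa8, a constitutive chaperone, fell 1.43-fold and 1.25-fold. The calls of Hspa8 and Hspd1 were lost with arrays only centred on their median.

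Of 26 cell cycle and growth genes, 2 were higher and 5 lower (26.9% called, against 38.2% of named genes). Myc (y00396mrna_g_at), a growth-promoting transcription factor, rose 4.06-fold from 8 to 17 in controls to 17 to 112 with CA (adjusted p = 6.40e-05). Gadd45a, a stress-induced growth arrest gene, rose 2.30-fold (adjusted p = 0.00355) but lost its call with replicates 1 to 3 averaged (adjusted p = 0.0539) and was not called at its second probe set (adjusted p = 0.0783). The 5 falls were Btg2, a relative of Btg1 (log2 fold change -0.55), and Junb, an immediate early factor, Ccnb1, the mitotic cyclin, Egfr, the epidermal growth factor receptor, and Btg1, an antiproliferative gene (the last 4 2.88-fold, 2.80-fold, 1.69-fold and 1.48-fold). Of these, Junb and Egfr lost their calls with replicates 1 to 3 averaged, and Btg1 with arrays only centred on their median. Pcna, a replication clamp, had medians of 87.5 and 78.5 and was not called.

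Among 25 nuclear receptors and liver transcription factors, 3 were higher and 1, Nr1h4, lower. Besides Srebf1, Onecut1 (y14933mrna_s_at) and Foxa2 (l09647_at), both factors of hepatocyte differentiation, rose 3.39-fold and 1.67-fold, and the call of Onecut1 was lost with replicates 1 to 3 averaged (adjusted p = 0.131). Ppara (m88592_at), the receptor that CA activates, was near the floor, between 4 and 16 in controls and between 4 and 23 with CA, and was not called (adjusted p = 0.922). A change of its RNA was not measurable at this signal.

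Outside the lists, 1 of the 15 largest rises and 1 of the 15 largest falls could be named, and both names were added after their values were seen. Aqp3 (d17695_s_at), a channel for water and glycerol, had -6 to 9 in controls, with 7 of 8 at or under the floor, and 110 to 180 with CA (log2 fold change 4.68, SE 0.12, adjusted p = 5.05e-17). Tfrc (m58040_at), the transferrin receptor for iron uptake, fell 4.76-fold from 60 to 96 in controls to 1 to 41 with CA (adjusted p = 5.06e-05). Fabp5 (s69874_s_at), a further fatty acid binding protein also named after its values were seen, rose from a median of 69 to 269.5 (adjusted p = 9.78e-09). The largest rise of all was the unnamed probe set m38759_at, between -13 and -2 in controls, all at or under the floor, and between 264 and 426 with CA (adjusted p = 3.07e-21). The control scatter of this probe set and of Aqp3 is set mostly by the floor, so their p-values do not measure it. The unnamed rc_ai008020_at rose from a median of 7.50 to 137. Among falls, the unnamed rc_ai176460_s_at went from a median of 804 to 52.5 and rc_aa893325_at from 912 to 92.

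Markers of hepatocytes, the main cells of the labelled tissue, were abundant, with 10 genes summing to 35860 to 52418 in controls and 28047 to 44113 with CA. Of them, 4 were lower (40.0% called, against 38.2% of named genes). In the macrophage list 3 of 7 genes were lower (42.9% called), namely Cd14, C1qb and Clec4f, with log2 fold changes of -0.62, -0.42 and -0.40. A second C1qb probe set (x71127_g_at) was not called (limma adjusted p = 0.469). The summed level was 1053 to 1330 in controls and 792 to 993 with CA. Without the arrays with a GAPDH ratio above 4, 1 gene of the list was lower. In the erythrocyte list 2 of 3 genes were higher (66.7% called), namely Hba-a1 and Hbb, with log2 fold changes of 0.37 and 0.68. Its sums were 4373 to 7239 in controls and 5417 to 9289 with CA. With arrays only centred on their median, 0 of its genes were called. Endothelial genes gave 0 calls of 6, cholangiocyte genes 0 of 3 and lymphocyte genes 0 of 2, by limma. Stellate cell and fibroblast genes gave 1 fall of 10, but 1 rise and 0 falls without the arrays with a GAPDH ratio above 4. The 3 cholangiocyte genes summed to at most 54.0 on any array. The part of these cells in the results above was not tested.

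The named genes were then set beside 0.54% CA. Both comparisons use the same 0.29% arrays, so they are not independent. Between the doses 37 of 7804 probe sets were higher (0.474%) and 42 lower (0.538%), 1.01% in all. Of the 87 named probe sets, 12 were called. The 79 calls over all probe sets became 34 with arrays only centred on their median, 132 with a floor of 20 and 211 with the replicate block. Fabp3 went on from a median of 99.5 to 268 (log2 fold change 1.47, adjusted p = 0.00264), Acot1 from 144 to 454 (1.55, adjusted p = 8.62e-05) and Cd36 from 270.5 to 674 (1.29, adjusted p = 8.10e-04). The alpha-2u globulin probe set fell again from 1358 to 356 (-1.86, adjusted p = 3.96e-06). Cyp3a9 was higher at 0.54% CA, at a median of 46.5 against 17 (1.22, adjusted p = 0.0337), and Gadd45a was lower (-1.43, adjusted p = 0.0170). Acaa1a, Ehhadh, Cyp4a1, Scd and Oat were not called between the doses.

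Stained sections, a separate set of arrays, gave the same contrast with 7 and 8 arrays. Whether they were cut from the same rats as the entire sections is not given in the labels used here. Agreement between the preparations may therefore not be independent. There 145 of 7913 probe sets were higher at 0.29% CA (1.83%) and 141 lower (1.78%), 3.61% in all. Entire-section calls that could be tested here numbered 871, of which 807 had the same sign (92.7%). Only 241 of the 871 were also called in stained sections in the same direction, and 0 in the opposite one. The share of equal signs over all probe sets is not given for comparison. All 87 named probe sets had the sign seen in entire sections, and 44 were called, 0 in the opposite direction. Acaa1a had a log2 fold change of 5.11 in stained and 5.14 in entire sections, Cyp3a9 -4.32 and -4.16, and Apoa4 -4.18 and -5.56. Srebf1, Sds and G6pc1 were not called in stained sections (adjusted p = 0.489, 0.0646 and 0.147). The difference between the preparations was called for 2 of 8191 probe sets in the direction of a higher log2 fold change in stained sections (0.0244%) and for 5 in the other (0.0610%), 0.0855% in all, as tested by limma on the difference itself.

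**Figure D5:**
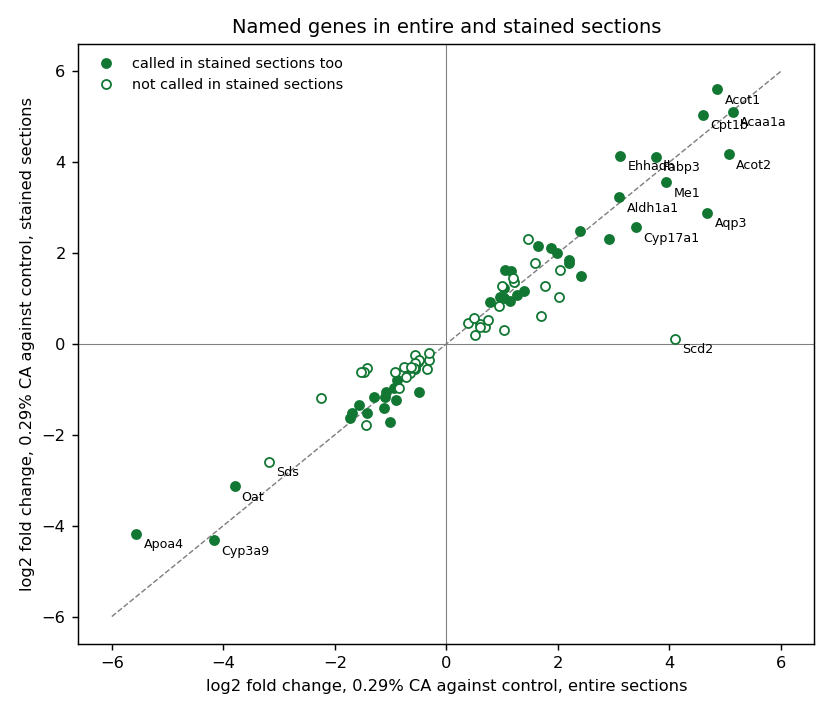
Log2 fold change at 0.29% CA against control in stained sections (vertical) against entire sections (horizontal) for the 87 named probe sets, with filled points called in stained sections too. All points lie to the lower left or upper right of 0, and the dashed line marks equal values. Scd2 (4.10 and 0.11) lies farthest below it.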

How the data were processed

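The authors deposited whole-number intensity values on a linear scale for 8799 probe sets, 59 of them controls; their software and scaling are not given in the sources used. Each of the 16 arrays had 20.6% to 23.6% of its values below 0. The number of arrays limits the precision. Control rows were dropped, a floor of 4 (10th percentile of all values above 0) was applied, log2 was taken and all 52 arrays were quantile normalized. limma 3.58.1 in R 4.3.3 (lmFit, eBayes, two-sided) was fitted to the 3 entire groups together, on probe sets above the floor on at least 1 array, with Benjamini-Hochberg adjustment over all tested; stained sections were fitted alike. The procedure was tested on simulated data. Plots and summaries used Python 3.11.15 and matplotlib 3.10.9.

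Gene names come from the accession in the ID by background knowledge. The planned rule took names only from a table, which was not at hand, so it was departed from. The members and lists, and the name list itself, were chosen with earlier results of these data known; 5 names were added and a few doubtful ones dropped after values were seen. Lists are described by counts and medians with no list test, at the brightest probe set of a gene, in place of the planned count of every probe set. From each list up to 4 called genes in each direction are named, and outside the lists the 15 largest changes in each direction with an intensity of at least 20 on all 8 arrays of the higher group were taken; unnamed ones are given by ID for 2 rises and 2 falls. Other genes named to fill in a pathway, such as Cat and Fabp1, and the genes drawn in the plots were chosen after their values were seen. Alternatives were another scale, floor, filter, variance prior, weights, arrays fitted, replicate block, covariate and left-out arrays. Averaging replicates 1 to 3 was chosen after seeing the data. A few genes counted in the lists are not reported here by name.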

Additional observations from a re-analysis of the deposited data

Results flagged for a closer look

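Among 174 groups of 8 arrays tested (87 named probe sets in each of both groups), 18 held an array whose gap to its nearest neighbour was a large share of the range of its group. Chance alone flags about 1 in 20 groups if values are independent and normally distributed. Linear intensities need not be normal and these groups share arrays, so 18 was not shown to be an excess. Control replicate 7, which also has a GAPDH 3'/5' ratio of 6.25, held 6 of them. It stood high at 1620 for Cyp4a1 (next 1031), 698 for Acsl5 (next 540), 604 for Cyp3a9 (next 387), 1134 for Gsta2 (next 783), 1408 for Rgn (next 936) and 1720 for Hspd1 (next 1363). The other controls apart were replicate 5 for Cpt1b (30, next 13) and Btg1 (782, next 1042), replicate 8 for Cyb5a (3412, next 2785) and Acot1 (13, next 3), replicate 4 for Oat (432, next 795) and replicate 6 for C4bpa (2419, next 2149). Treated replicate 6 stood low for Ephx2 (117, next 218), Fdps (206, next 467) and Gpx1 (2026, next 2661). Treated replicate 5 was low for the probe set listed as Cyp4f1 (19, next 30) and high for Got1 (506, next 273). Treated replicate 8 was high for Cyp2c13 (3216, next 2516).

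The effect of 0.29% CA differed between stained and entire sections at 3 probe sets of named genes, by the limma test of the difference. For Cd36 the difference of log2 fold changes, stained minus entire, was -2.44 at ab005743_at (adjusted p = 3.20e-04) and -3.19 at ab005743_g_at (adjusted p = 6.67e-05), and for Acot2 it was -2.87 at y09333_at (adjusted p = 4.76e-06). Medians of these probe sets in stained sections were at or under the floor of 4 with and without CA, at 2 and 3, -12 and -13, and -2 and -8.50. The brighter probe sets of both genes (af072411_g_at and y09333_g_at) were called higher in stained sections, with log2 fold changes of 2.49 and 4.17.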

How the results depend on the processing

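Main calls numbered 877 and stayed within 1.5 times under all settings chosen at the outset but 2, namely all 15 groups in the fit (539) and a 2-fold minimum (356). They numbered 537 with replicates 1 to 3 of each group averaged, an alternative chosen after seeing the data, of which 529 were among the main calls. Centring arrays on their median gave 585. Leaving out single arrays gave 761 to 934, the highest without control replicate 7. For 0.54% against 0.29% CA the 79 calls became 34 on the centred scale (58.8% higher, against 46.8%), 132 with a floor of 20 and 211 with the replicate block. For the difference between stained and entire sections the 7 calls became 16 with a floor of 20, and on the centred scale the share that was higher went from 28.6% to 16.7%. The stained comparison kept 224 to 356 calls around its 286. Replicate numbers are shared across groups. Same-numbered control and treated arrays deviated together (correlation over 0.1) in 5 of 8 pairs, with correlations of -0.04 to 0.47 (median 0.13). Of the 8 controls, 4 correlated best with the treated array of their own number. The main fit did not pair samples by number, and whether numbers mark a shared source or batch was not tested. With the replicate block the main calls were 889. Of the 87 named probe sets (77 with the filter at a mean intensity of 50) none changed sign under these settings, and 54 kept their call under every alternative but the 2-fold minimum. Apart from that minimum, the centred scale ended 18 calls, all 15 groups 17 and averaging 16. Leaving out single arrays ended those of Aldh1a7, Srebf1, Apobec1, Fdft1, Lss, Gstm2 and Hspa8. The causes were not tested. Genes near the floor, such as Ppara, cannot be judged.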

Other observations

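Of 77 named genes with a median intensity of at least 50 at 0.29% CA, the SD of the normalized log2 values among the 8 treated arrays had a median of 0.27, the same as among controls. The 8 genes with the widest spread among treated arrays are given here, picked after their values were seen. Scd2 had an SD of 2.66 and intensities of 322, 471, 334, 111, 104, -35, 3 and 172 on replicates 1 to 8, with all controls at or under the floor. Sds had an SD of 1.79, against 0.64 in controls, and intensities of 51, 37, 46, 293, 794, 499, 385 and 55. Onecut1 (SD 1.07, controls 0.40) had 272, 259, 273, 111, 238, 65, 60 and 439, against 38 to 74 in controls. Srebf1 spread as widely in controls (SD 1.27 and 1.23) and had 581, 671, 558, 445, 408, 108, 69 and 550. G6pc1 (SD 1.02, controls 0.32) had 729, 563, 637, 287, 1627, 403, 408 and 1867, and Myc (SD 0.91, controls 0.39) had 55, 50, 49, 62, 17, 112, 101 and 24. Igfbp1 (SD 0.88, controls 0.81) had 470, 444, 465, 394, 90, 368, 574 and 301. Gadd45a (SD 0.72, controls 0.14) had 194, 187, 192, 250, 52, 173, 169 and 120. Replicates 1, 2 and 3 had close values in most of these genes, less so in Scd2. Whether these replicates share an animal or an RNA extract is not given in the labels.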
